A study of Mus musculus with 6 samples.

Results

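The BCL2 family members examined here are 10 genes that promote or restrain mitochondrial cell death, chosen as every probe set annotated to 1 gene and to Bcl2, Bcl2l1, Mcl1, Bax, Bak1, Bad, Bid, Bik, Bcl2l11 or Bbc3. Of these, 9 genes were represented by 26 of the 22690 probe sets on the array, and Bax was not analysed here because the annotation used names no probe set for it. RNA came from cochleae of mouse embryos at embryonic day 18.5, taken with the otic capsule and without vestibular tissue, and was hybridised to single-colour Affymetrix arrays. There were 3 pools from Igf1 null (Igf-1-/-) embryos and 3 pools from wild type (Igf-1+/+) embryos, each of 4 cochleae from 2 embryos, all bred from heterozygous C57BL/6J parents. Titles and descriptions give these genotypes, but the source field of the 3 null samples carries the wild type sign and that of 1 wild type sample gives another embryonic day.

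BCL2 family proteins decide whether the outer mitochondrial membrane is opened during apoptosis. Pro-survival proteins (BCL2, BCL-XL from Bcl2l1, MCL1) hold in check the effectors BAX and BAK, which form the pores that release cytochrome c. BH3-only proteins (BAD, BID, BIK, BIM from Bcl2l11, PUMA from Bbc3) report stress by binding the pro-survival proteins or by activating the effectors directly. Insulin-like growth factor 1, the product of Igf1, is a survival factor whose receptor activates the kinase AKT. AKT phosphorylates BAD and keeps FoxO transcription factors out of the nucleus, and FoxO factors are known activators of Bcl2l11 and Bbc3.

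The sequence upstream of the member genes was searched for FoxO sites for that reason, and for 2 further motifs, the E2F site and the cAMP response element. The RefSeq promoter table used (assembly GRCm38.p6) gave 14 start sites for 8 of the 9 measured genes, Bik not being searched here, and the 250 bases before each were read on both strands. The FoxO motif GTAAACA occurred in 2 of these 14 windows, 1 of Bcl2l11 and 1 of Bbc3, and in 3.17% of 32851 such windows of all genes. The E2F motif TTTNNCGC occurred in 1 window, of Bcl2l1, against 4.28% of all windows, and the cAMP response element TGACGTCA in 0, against 1.55%. These 3 windows are printed 5′ to 3′ on the strand of the gene, with the match in capitals.
Bcl2l11 (BIM), chr2:128125788-128126037, plus strand: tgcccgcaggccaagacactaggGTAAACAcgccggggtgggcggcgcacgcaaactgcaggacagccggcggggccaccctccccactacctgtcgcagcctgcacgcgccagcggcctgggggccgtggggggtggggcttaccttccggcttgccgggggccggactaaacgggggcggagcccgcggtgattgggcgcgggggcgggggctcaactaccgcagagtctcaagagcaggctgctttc
Bbc3 (PUMA), chr7:16310011-16310260, plus strand: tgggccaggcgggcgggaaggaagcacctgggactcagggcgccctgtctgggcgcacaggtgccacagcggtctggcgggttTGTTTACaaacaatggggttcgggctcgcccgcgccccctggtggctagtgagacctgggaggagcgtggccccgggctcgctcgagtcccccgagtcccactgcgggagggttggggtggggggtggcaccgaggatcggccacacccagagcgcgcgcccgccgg
Bcl2l1 (BCL-XL), chr2:152830718-152830967, minus strand: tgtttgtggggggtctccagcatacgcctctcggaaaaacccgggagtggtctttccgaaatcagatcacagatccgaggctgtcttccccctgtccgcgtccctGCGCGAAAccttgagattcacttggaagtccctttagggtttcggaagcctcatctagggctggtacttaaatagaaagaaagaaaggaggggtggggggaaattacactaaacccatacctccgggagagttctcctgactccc
The FoxO match begins 227 bases before the start site in Bcl2l11 and 167 bases before it in Bbc3, where it reads TGTTTAC because it lies on the other strand. In Bcl2l1 the E2F match also lies on the other strand and begins 145 bases before the start site. A match is a run of letters, and occupancy by any factor was not measured.

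Levels below are log2 signals after quantile normalization of the 6 arrays, and differences are Igf1 null minus wild type. Before normalization the array medians ran from 5.61 to 6.36 in null and from 6.09 to 6.30 in wild type arrays, the lowest being null replicate 1. Igf1 signal at its 3 probe sets was 0.502 to 0.729 of the wild type level in the null pools, with no overlap of the groups at any of them and adjusted p of 0.600 to 0.889 in limma. Which part of Igf1 was disrupted is not given in the labels, nor where these probe sets lie relative to it. Of 10 measured genes of the cochlear epithelium 9 had higher mean signal in the null pools (list mean per array 7.66 to 8.22, against 7.28 to 7.73 in wild type). Tecta, which encodes a protein of the tectorial membrane, averaged 9.39 in null and 9.12 in wild type arrays, while Fgf10 was dim, at 2.67 in null and 1.70 in wild type arrays. Xist, expressed from the inactive X chromosome, read -3.93 in null replicate 2 and from 10.38 to 12.29 in the other arrays. The Y-linked gene Eif2s3y read 2.32, 7.33 and 6.80 in null replicates 1 to 3 and -3.56, 6.92 and -0.52 in wild type replicates 1 to 3, so the sex markers were not balanced between the genotypes. Of the other marker lists, all 10 cartilage genes were lower in the null pools (list mean per array 10.13 to 10.79, against 10.62 to 11.11 in wild type), and 10 of 12 hair cell genes were higher (3.81 to 4.25, against 3.36 to 3.58). The hair cell list was mostly dim, at a median level of 4.21. Its brightest genes, Myo6, Myo7a and Otof, had differences of 0.03, 0.06 and 0.16. The genotypes did not overlap at 3 of the 12, against 10.8% of all probe sets, all of them dim and higher in the null pools. These were Slc26a5 (1.93), Espn (1.18) and Myo15 (0.83), at mean levels of -0.23, -0.35 and 4.66, while 2 of the 12 were lower. All 5 measured bone genes (8.03 to 8.91, against 8.83 to 9.06) and 8 of 11 spiral ganglion neuron genes (7.71 to 8.60, against 7.66 to 9.25) had lower mean signal in the null pools. Of 6 erythroid genes 3 were lower and 3 higher. Among the lower ones was Slc4a1, a gene chosen after its values were seen. It was dim, at 3.43 in null and 5.20 in wild type arrays. Whether these shifts contribute to the values below was not tested. In RNA from whole tissue, fewer cells of a type and less RNA per cell cannot be told apart.

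No measured BCL2 family gene was called different between Igf1 null and wild type cochleae in the fit across all probe sets, a fit that did not call Igf1 itself. With limma and Benjamini-Hochberg adjustment, 0 of 26 member probe sets passed an adjusted p of 0.05, and 0 of 22626 (0%) did so on the whole array. Adjusted p among the members ran from 0.974 to 0.998. At an unadjusted p under 0.05 there was 1 member probe set, of Bcl2l11, with lower signal in the null pools, where 2.58% of all probe sets were at that level. There were 0 with higher signal, where 2.42% of all probe sets were, and 4.99% of all were in either direction. The genotypes did not overlap at 3 of the 26, against 10.8% of all probe sets. Of these 1 was higher (Bad), against 5.53% of all, and 2 were lower (Mcl1 and Bcl2l11), against 5.3% of all. These counts are near the background of the array. With array weights or a pseudocount of 32, 4 of the 26 had an unadjusted p under 0.05. Over the whole array 1613 and 1443 of 22626 probe sets did so, against 1130 in the main fit. Those 4 were 2 of Mcl1, both lower, 1 of Bad, higher, and 1 of Bcl2l11, lower in the null pools. Between same-numbered null and wild type arrays, 2 of the 26 were higher in all 3 pairs, against 14.7% of all probe sets, and 4 were lower in all 3, against 14.5%. The median size of a member's difference, sign left aside, was 0.17, and it was likewise 0.17 over all probe sets. Of the 26 differences 17 were positive and 9 negative, where 49.3% of all probe sets were negative, and the members' median was 0.03, against 0.0041 over all probe sets.

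How far the array could resolve these genes depended on their signal. A level of 5.28, the 40th percentile of probe sets, was used to separate brighter from dim ones. Among members, 17 probe sets of 8 genes were brighter and 9 were dim, among them all 3 of Bik. Differences ran from -0.35 to 0.25 at the brighter member probe sets and from -0.36 to 0.91 at the dim ones, with a median standard error of 0.13 and 0.57. Over the whole array the median standard error was 0.15 for brighter and 0.61 for dim probe sets. As a measure of empty signal, the 3 control probe sets for a bacterial tryptophan gene read between -15.75 and 2.72 before normalization, and whether that RNA had been added is not given in the sources used here.

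**Figure D1:**
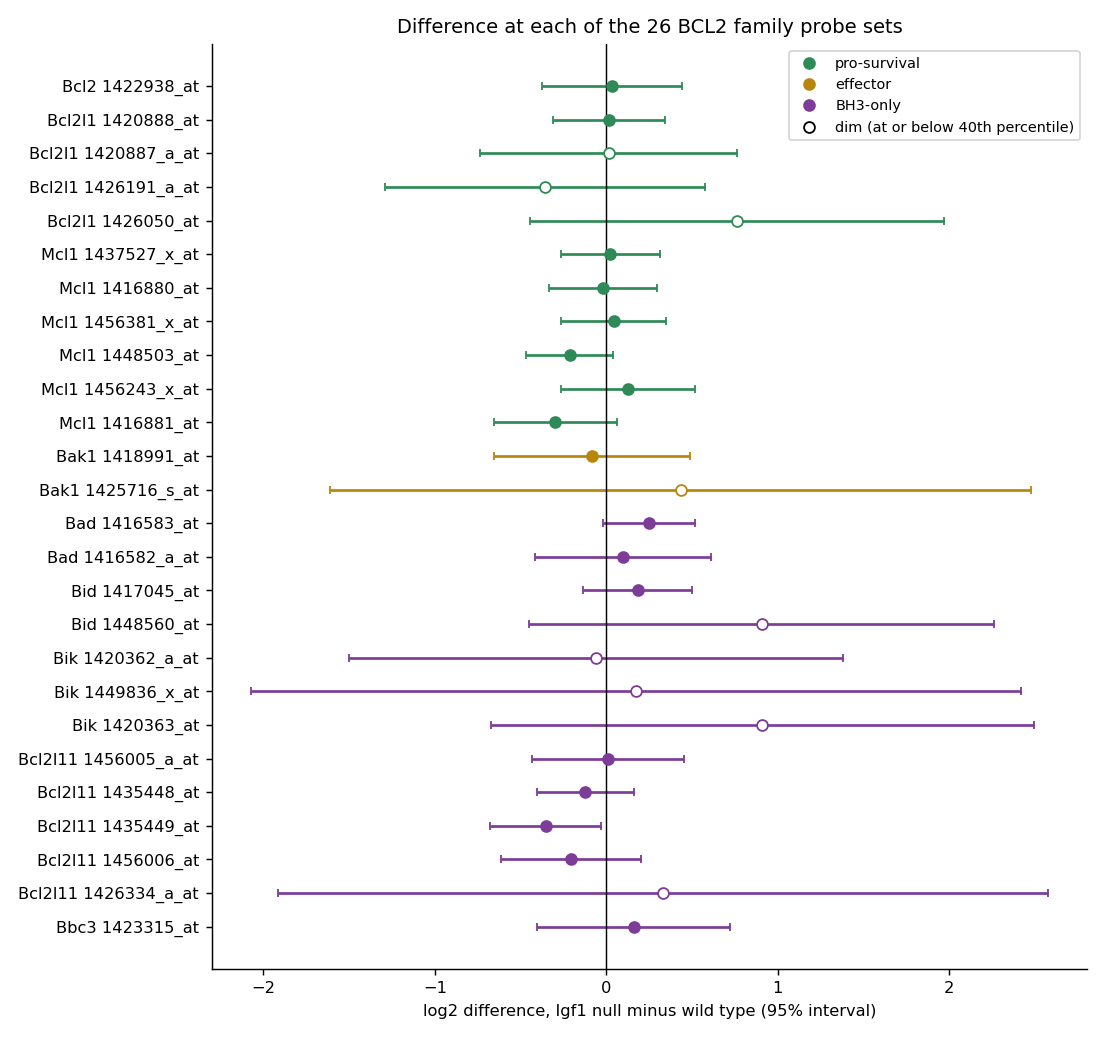
The log2 difference of Igf1 null minus wild type (x axis) is shown with its 95% limma interval for each of the 26 probe sets (y axis), coloured by role, with open symbols for dim probe sets. All intervals but that of Bcl2l11 1435449_at (-0.68 to -0.03) include 0, and the widest belong to dim probe sets of Bik, Bak1 and Bcl2l11.

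The pro-survival genes showed nearly equal mean signal in the genotypes at their brightest probe sets. Bcl2, which guards mitochondria and the endoplasmic reticulum, read 6.37, 6.58 and 6.77 in null replicates 1 to 3 and 6.63, 6.34 and 6.66 in wild type replicates 1 to 3. The groups overlapped throughout, and the difference was 0.03 ± 0.16 (SE), a null to wild type ratio of 1.02 with a 95% interval of 0.771 to 1.36.

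Bcl2l1 encodes BCL-XL and, by alternative splicing, a shorter death-promoting form. Its brightest probe set, 1420888_at, read 7.23, 7.43 and 7.08 in null pools, against 7.21, 7.26 and 7.22 in wild type pools. The wild type values lay within the range of the null values, and the ratio was 1.01 (95% interval 0.808 to 1.27). The other 3 Bcl2l1 probe sets were dim and gave differences of 0.01, -0.36 and 0.76, with standard errors of 0.30, 0.37 and 0.48. The probe set at 0.76 (1426050_at) had means of -0.02 ± 0.78 in null and -0.78 ± 0.52 in wild type pools (SD, n = 3 each). Before normalization its arrays read from -1.31 to 0.83, within the range of the 3′ tryptophan control alone (-2.26 to 2.72).

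Mcl1 encodes a short-lived pro-survival protein that restrains BAK, and it was read by 6 probe sets, all of them brighter ones. The brightest, 1437527_x_at, gave 9.88, 9.73 and 9.98 in null pools, against 9.84, 9.80 and 9.89 in wild type pools. Its difference was 0.02 ± 0.11 (SE), a ratio of 1.02 (95% interval 0.831 to 1.24). Of the 6 probe sets 3 were higher in the null pools, and all 3 carry the suffix _x_at. Affymetrix gives it to sets whose probes can also bind other transcripts. The 3 probe sets without it were lower. At the 3 _x_at sets and at 1416880_at the difference was smaller than its SE, and its sign changed under some of the alternative settings below. Binding of other transcripts was not tested. The brightest set, itself an _x_at set, stands for Mcl1 in the offsets, balance and pair ratios below.

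The Mcl1 probe sets did not move together. At 1448503_at the signal was 8.83, 8.70 and 8.74 in null pools, against 8.94, 8.95 and 9.02 in wild type pools. Every null value lay below every wild type value there, with a difference of -0.21 ± 0.10 (SE), an unadjusted p of 0.0842 and an adjusted p of 0.980 in limma. The dimmest Mcl1 probe set, 1416881_at, read 6.73, 6.38 and 6.40 in null pools and 6.88, 6.70 and 6.83 in wild type pools, a difference of -0.30 ± 0.14. Null replicate 1 alone overlapped the wild type range, and the null array was the lower one in all 3 same-numbered pairs. The 3 Mcl1 probe sets marked _x_at stood at 0.02, 0.04 and 0.13, and 1416880_at stood at -0.02.

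Measured against the brightest Mcl1 probe set on the same array, a comparison chosen after the values were seen, 1448503_at stood at -1.11 ± 0.12 in null arrays and -0.87 ± 0.03 in wild type arrays (SD, n = 3 each). The same offset for 1416881_at was -3.36 ± 0.21 in null and -3.04 ± 0.07 in wild type arrays. Both offsets separated the genotypes on all 6 arrays, while those of the other 3 Mcl1 probe sets overlapped. No p is given for these 2 offsets, because the comparison was chosen on the same values that it would test. Another within-transcript measure also separated the genotypes: the 3′ minus 5′ control signal of beta-actin was 0.94 ± 0.12 in null and 0.76 ± 0.04 in wild type arrays (SD, n = 3 each). For Gapdh the same measure overlapped, at 0.35 ± 0.17 in null and 0.25 ± 0.06 in wild type arrays (SD, n = 3 each). The part of RNA quality in the Mcl1 values was not tested.

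Of the effectors, Bak1 alone could be read. Bak1 encodes BAK, which sits in the outer mitochondrial membrane and is held by MCL1 and BCL-XL. Probe set 1418991_at read 6.45, 6.12 and 6.30 in null pools, against 5.99, 6.39 and 6.75 in wild type pools. The wild type pools spread more widely than the null pools and enclosed them, and the difference was -0.08 ± 0.23 (SE), a ratio of 0.943 (95% interval 0.634 to 1.40). Its second probe set was dim, with values from -0.60 to 1.22 in null and from -0.73 to 1.56 in wild type pools.

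**Figure D2:**
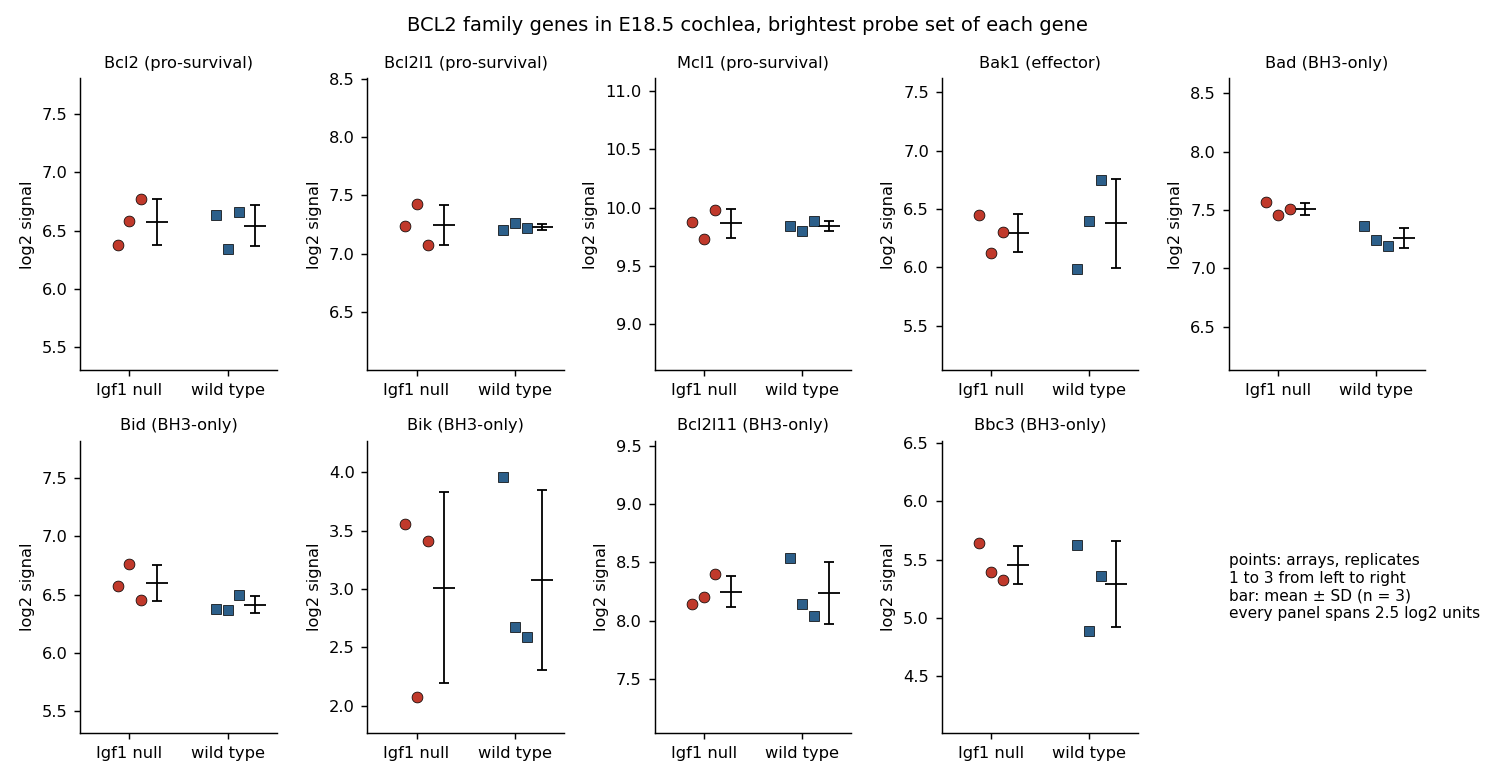
Log2 signal (y axis) of the brightest probe set of each measured gene is plotted for the 3 Igf1 null arrays (circles) and the 3 wild type arrays (squares), with mean ± SD as bars, on panels that all span the same range. Bad alone has no overlap between the genotypes, and Bik, a dim gene, spreads most widely in both.

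Among the BH3-only genes, both Bad probe sets had higher mean signal in the null pools, and 3 of the 4 brighter Bcl2l11 probe sets had lower mean signal, none of them past the adjusted threshold. Bad encodes a protein that AKT phosphorylation keeps away from BCL-XL. At 1416583_at it read 7.56, 7.46 and 7.51 in null pools, against 7.36, 7.24 and 7.19 in wild type pools. All null values lay above all wild type values, with a difference of 0.25 ± 0.11 (SE), a ratio of 1.19 (95% interval 0.985 to 1.43), an unadjusted p of 0.0648 and an adjusted p of 0.980 in limma. On the values as deposited, before normalization, the groups overlapped and the difference was 0.11. The second Bad probe set, 1416582_a_at, overlapped, with means of 6.86 ± 0.14 in null and 6.76 ± 0.33 in wild type pools (SD, n = 3 each).

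Bcl2l11 encodes BIM, a BH3-only protein that binds every pro-survival member and takes part in the death of cells deprived of growth factors. Its brightest probe set, 1456005_a_at, read 8.14, 8.20 and 8.40 in null pools, against 8.54, 8.14 and 8.04 in wild type pools. The null values lay inside the wild type range, and the ratio was 1.01 (95% interval 0.741 to 1.37). At 1435449_at the signal was 6.29, 6.26 and 6.45 in null pools, against 6.70, 6.54 and 6.83 in wild type pools. Here every null pool lay below every wild type pool, with a difference of -0.35 ± 0.13 (SE), a ratio of 0.783 (95% interval 0.625 to 0.979), an unadjusted p of 0.0373 and an adjusted p of 0.974 in limma.

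The remaining brighter Bcl2l11 probe sets lay between these results. At 1435448_at the 3 null pools all read 7.47, against 7.69, 7.63 and 7.45 in wild type pools, a difference of -0.12 ± 0.11 (SE). At 1456006_at they read 5.59, 5.68 and 5.97 in null pools, against 6.00, 5.76 and 6.10 in wild type pools, a difference of -0.21 ± 0.16. The groups overlapped at both, although 1456006_at was lower in null than in wild type arrays in all 3 same-numbered pairs. Relative to the brightest Bcl2l11 probe set, a comparison chosen after the values were seen, 1435449_at lay at -1.91 ± 0.05 in null and -1.55 ± 0.32 in wild type arrays (SD, n = 3 each). The null arrays, from -1.95 to -1.85, all lay below the wild type arrays, from -1.84 to -1.21. Null replicate 1 and wild type replicate 1 lay next to each other there, and the offsets of 1435448_at and 1456006_at overlapped between the genotypes. The fifth, dim probe set stood at 0.33 ± 0.89, and the mean over all 5 at -0.07.

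**Figure D3:**
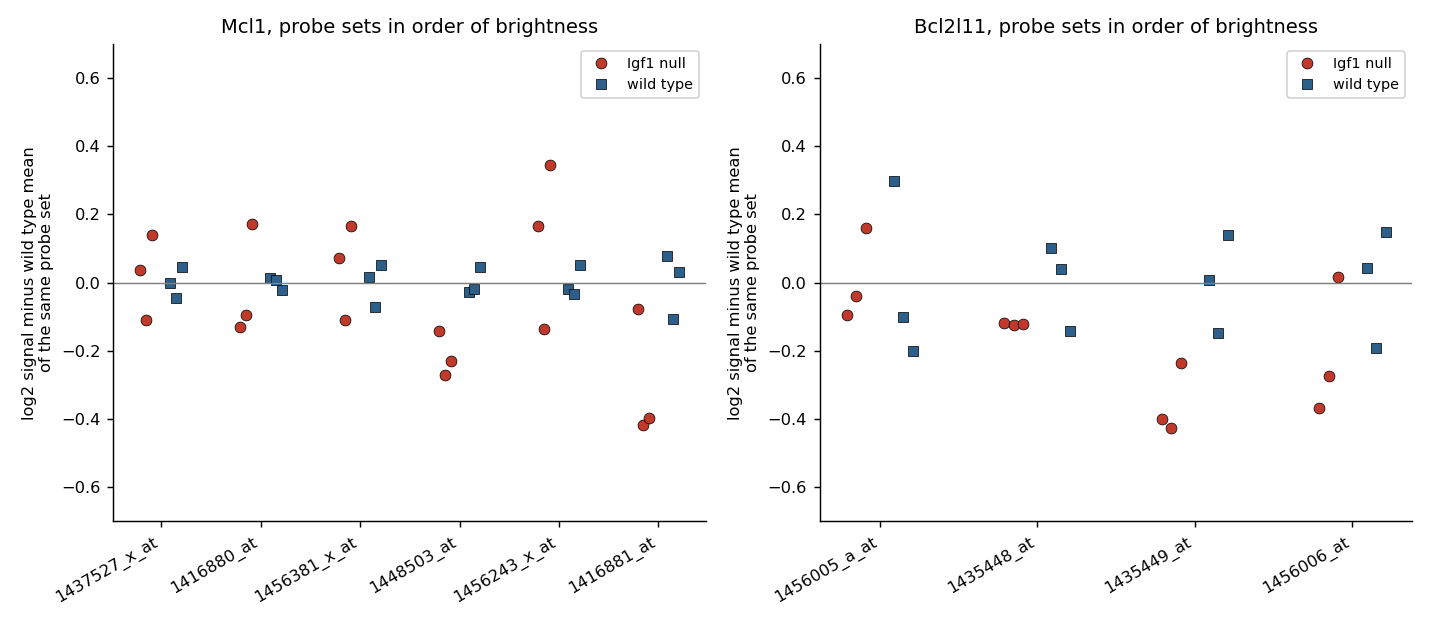
For the brighter probe sets of Mcl1 (left) and Bcl2l11 (right), ordered from bright to dim along the x axis, the y axis gives log2 signal of each array minus the wild type mean of that probe set, with Igf1 null as circles and wild type as squares. The null arrays lie below all wild type arrays at Mcl1 1448503_at and Bcl2l11 1435449_at, and overlap them at the other probe sets.

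Bid, whose protein is cut by caspase-8 and carries the death receptor signal to mitochondria, read 6.58, 6.76 and 6.45 in null pools, against 6.37, 6.37 and 6.50 in wild type pools at 1417045_at. Null replicate 3 lay within the wild type range, and the difference was 0.18 ± 0.13 (SE), a ratio of 1.14 (95% interval 0.909 to 1.42). The dim second Bid probe set stood at 0.91 ± 0.54, its null values between 3.16 and 3.85 and its wild type values between 1.48 and 3.44.

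Bbc3 encodes PUMA, a p53 and FoxO target that can neutralise all pro-survival members. Its 1 probe set read 5.64, 5.39 and 5.33 in null pools, against 5.62, 4.89 and 5.36 in wild type pools. Wild type replicate 2 was the low value and the groups overlapped, with a difference of 0.16 ± 0.22 (SE), a ratio of 1.12 (95% interval 0.757 to 1.65). Among the genes with a FoxO match upstream, Bbc3 was thus at 0.16 and the 4 brighter Bcl2l11 probe sets ran from -0.35 to 0.01. Foxo1 and Foxo3, named here because of that motif and outside the rule for naming genes, stood at -0.14 ± 0.12 and 0.0015 ± 0.25.

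Bik, whose BH3-only protein sits at the endoplasmic reticulum, was dim at all 3 probe sets. The brightest of them, 1420362_a_at, read 3.56, 2.07 and 3.41 in null pools, against 3.96, 2.67 and 2.58 in wild type pools. The ratio of 0.958 had a 95% interval of 0.353 to 2.60, a width that leaves the direction of any change of Bik undetermined. At the dimmest, 1420363_at, the difference was 0.91 ± 0.63.

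The balance between the arms of the family was read within each array as the mean log2 signal of the 3 pro-survival genes minus that of the 6 pro-death genes, at the brightest probe set of each. Because probe sets differ in brightness, only its change between arrays can be read. The balance was 1.51, 1.91 and 1.71 in null replicates 1 to 3 and 1.59, 1.85 and 1.85 in wild type replicates 1 to 3. The genotypes overlapped, with 1.71 ± 0.20 in null and 1.76 ± 0.15 in wild type arrays (SD, n = 3 each). The difference of -0.05 was smaller than either SD. Without Bik the balance was 1.08 ± 0.10 in null and 1.15 ± 0.04 in wild type arrays (SD, n = 3 each), and the genotypes overlapped. The difference was -0.08, smaller than the null SD and larger than the wild type SD. Within same-numbered pairs that difference was -0.16, -0.065 and -0.011, while with Bik it was -0.077, 0.066 and -0.14. Pro-survival means were 7.90 ± 0.06 in null and 7.87 ± 0.06 in wild type arrays, and pro-death means 6.19 ± 0.17 and 6.11 ± 0.18 (SD, n = 3 each). Without Bik the pro-death mean was 6.82 ± 0.05 in null and 6.72 ± 0.10 in wild type arrays (SD, n = 3 each). Its values were 6.87, 6.79 and 6.80 in null and 6.78, 6.61 and 6.77 in wild type replicates 1 to 3. The genotypes did not overlap there, by a narrow margin, and no test was run on this mean.

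**Figure D4:**
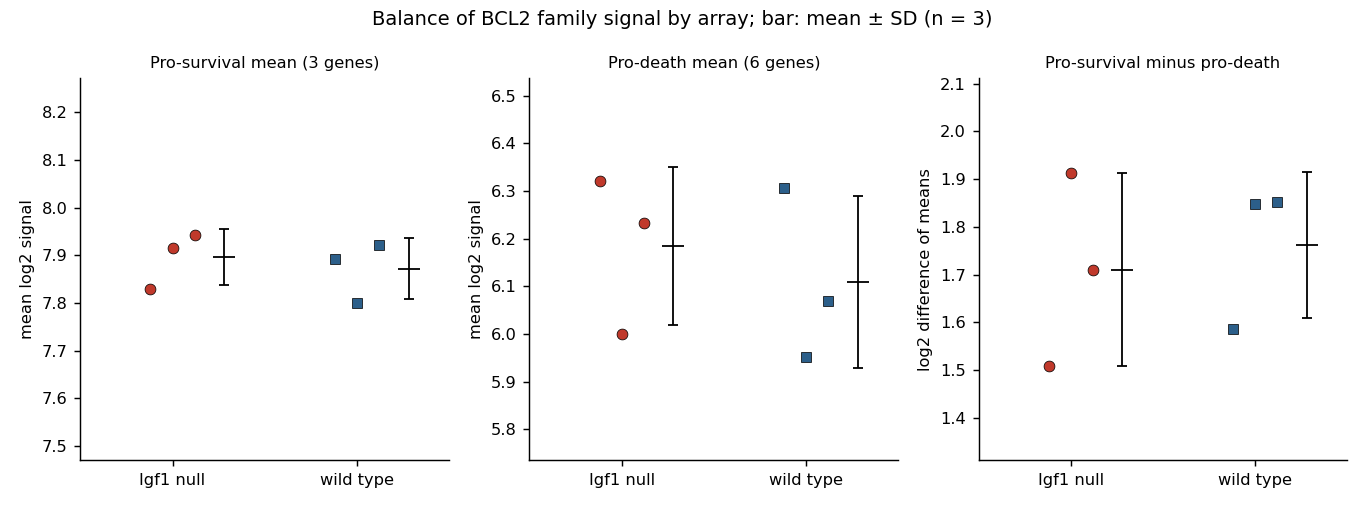
Mean log2 signal of the pro-survival genes (left), of the pro-death genes (middle) and their difference (right) is shown per array, Igf1 null as circles and wild type as squares, with mean ± SD as bars. The genotypes overlap in all 3 panels, and the pro-death mean, which includes the dim gene Bik, spreads more than the pro-survival mean.

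Pairs whose proteins are known to bind each other were read in the same way, and the genotypes overlapped in each pair. The log2 ratio of Mcl1 to Bak1 was 3.57 ± 0.13 in null and 3.47 ± 0.36 in wild type arrays, and that of Mcl1 to Bcl2l11 1.62 ± 0.11 and 1.60 ± 0.28 (SD, n = 3 each). For Bcl2 to Bcl2l11 it was -1.67 ± 0.08 in null and -1.70 ± 0.28 in wild type arrays (SD, n = 3 each). The change from wild type to null was -0.21 for Bcl2 to Bad and -0.14 for Mcl1 to Bbc3. It was 0.10 for Bcl2l1 to Bak1 and 0.0078 for Bcl2l1 to Bcl2l11. Every pair with Bad uses 1416583_at, the Bad probe set at which the groups did not overlap. Of the 8 pairs read, the change was largest for Bcl2l1 to Bad, at -0.23, which exceeded either SD. The ratios were -0.26 ± 0.21 in null and -0.03 ± 0.10 in wild type arrays (SD, n = 3 each). Those values, -0.33, -0.03 and -0.43 in null and -0.15, 0.02 and 0.03 in wild type replicates 1 to 3, overlapped between the groups, and the null value was the lower one in all 3 same-numbered pairs (-0.18, -0.050 and -0.46).

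Other BCL2 family genes were also without a call. Of 10 measured members of a list of 15 others, 0 passed the adjusted threshold in either direction. Mean signal was higher for 2 and lower for 8 in the null pools, and their median difference was -0.21 at a median level of 3.67, against 0.0041 over all probe sets. Bnip3, a mitochondrial protein gene of the hypoxia response, read 9.08, 9.15 and 9.20 in null pools, against 9.36, 9.35 and 9.40 in wild type pools. The groups did not overlap, with a difference of -0.23 ± 0.10 (SE). Bmf, a BH3-only gene, stood at 0.96 ± 0.46 with dim values from 2.15 to 3.78 in null and from 1.59 to 2.11 in wild type pools. Bok, a relative of Bak1, stood at -0.32 ± 0.27, and Pmaip1, which encodes NOXA, the BH3-only partner of MCL1, at -1.38 ± 1.23 with means of -2.31 in null and -0.92 in wild type pools.

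In a list of other genes of the mitochondrial death pathway, 0 of 12 measured genes passed, 9 having higher and 3 lower mean signal in the null pools (median difference 0.09). Xiap, the inhibitor of caspases, read 9.94, 9.94 and 10.09 in null pools, against 9.84, 9.73 and 9.61 in wild type pools, a difference of 0.26 ± 0.12 (SE) without overlap. The channel gene Vdac1 stood at 0.27 ± 0.17, the initiator caspase gene Casp9 at 0.13 ± 0.13 and Apaf1, the scaffold on which cytochrome c activates caspase-9, at -0.14 ± 0.12. Of 27 measured regulators of the family 0 passed, 15 having higher and 12 lower mean signal (median difference 0.010). E2f1, a cell cycle factor known to activate several BH3-only genes, read 5.90, 6.11 and 5.94 in null pools, against 6.20, 6.37 and 6.36 in wild type pools. Its difference was -0.33 ± 0.12, with an unadjusted p of 0.0372 and an adjusted p of 0.974 in limma. Casp8, which cuts BID, stood at -0.22 ± 0.16. Of the 14-3-3 genes, whose proteins hold phosphorylated BAD, Sfn stood at 1.03 ± 0.46 and Ywhaq at 0.17 ± 0.11. Sfn was dim and its groups overlapped, from 4.22 to 4.87 in null and from 2.99 to 4.49 in wild type pools.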

How the data were processed

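Each of the 6 pools was hybridised to 1 Affymetrix array, per the labels' protocols. The deposited table holds 1 log2 signal per probe set and array, with the log base inferred from the values; how probe signals were corrected and summarised is not given in the sources used here. Array medians differed, so arrays were quantile normalized after 64 control probe sets were left out. Groups came from sample titles. The null minus wild type difference was fitted by lmFit and eBayes of limma 3.58.1 (R 4.3.3; genotype as the only term, two-sided) over 22626 probe sets, with Benjamini-Hochberg adjustment and a threshold of 0.05; the procedure was tested on simulated data. Probe sets were named from the platform annotation (20380 with 1 gene, 691 with several, 1555 with none). Members, lists and tests were chosen with earlier results of these data known. Genes named are all members, Igf1 and, from each pathway list, the 4 with the smallest p at their brightest probe set, plus marker genes and any said to fall outside this rule.

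Null and wild type samples share replicate numbers 1 to 3, and the titles also carry the number 14 (replicate 1 of each) or 16, whose meaning is not given. Deviations from the group means correlated between same-numbered arrays at 0.145, 0.293 and 0.121 for replicates 1 to 3 over brighter probe sets, and at 0.0399, 0.101 and 0.0209 over all probe sets. The design text calls the pools of a genotype independent without naming litters, and the number of arrays limits the precision. Results were recomputed on the deposited values, with medians aligned in place of quantiles, with a block for the replicate number or for the title number, within title number 16, above the 40th percentile, with a pseudocount of 32, with array weights (statmod 1.5.0), with a trended, robust variance, on gene averages over probe sets, and without each array in turn.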

Additional observations from a re-analysis of the deposited data

How the results depend on the processing

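Under all 16 alternatives 0 member probe sets and 0 probe sets or genes of the array passed the adjusted threshold, and the lowest adjusted p of any member probe set was 0.608 (Bcl2l11 1435449_at, array weights). At an unadjusted p under 0.05 the fit had 1130 probe sets; over alternatives testing all 22626 the counts ran from 828 with the values as deposited (210 higher and 618 lower, against 547 and 583, with an all-probe median of -0.15) to 1613 with array weights, and the filter left 673 of 13575. With the replicate block there were 1327. Members at that level numbered 4 of 26 with array weights and with the pseudocount (1443 of 22626 in all). They numbered 2 of 26 with median centring (1148 in all) and without null replicate 1 (1143 in all), and 2 of 17 with the filter. Under the other alternatives on single probe sets they numbered 0 or 1. The replicate block changed no call. The median difference of the pro-survival probe sets was 0.02, and -0.13 with the values as deposited. The median of the pro-death probe sets was 0.16, and -0.051 with the values as deposited. Leaving out single arrays, the pro-survival median ran from -0.04 to 0.05, the pro-death median from -0.039 (without wild type replicate 2; -0.017 without wild type replicate 3) to 0.23, and the balance from -0.15 to 0.05 (without null replicate 1). The pro-death median was 0.0092 with the filter at the 40th percentile and 0.014 with the pseudocount. The balance was -0.19 with gene averages over probe sets. With the values as deposited 10 of 26 member differences changed sign. The differences of Bcl2l11 1435449_at (-0.51 to -0.26), Mcl1 1448503_at (-0.34 to -0.16) and Mcl1 1416881_at (-0.46 to -0.22) were negative, and that of Bad 1416583_at (0.11 to 0.29) positive, under all 15 alternatives that keep single probe sets. Within title number 16 alone, 4 member differences changed sign and 1, of Bik 1420363_at, had an unadjusted p under 0.05.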
